A study of Mus musculus with 15 samples.

Results

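The primitive endoderm forms beside the epiblast from the inner cell mass of the blastocyst. Of its regulators and early products, 9 were followed here in mouse embryonic stem cells (ESCs) depleted of TET1 or TET2. The genes were chosen by name: the transcription factors Gata4, Gata6, Sox17, Sox7, Foxa2 and Hnf4a, the receptor gene Pdgfra and the endocytic adaptor and receptor genes Dab2 and Cubn. Earlier results of these data were known when the choice was made. They are 9 of the 26061 genes in the deposited table, and all 9 were among the 19490 genes tested.

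As background, FGF4 made by the epiblast acts through FGF receptors and ERK on cells that go on to express GATA6, which opposes NANOG. GATA6 is followed by PDGFRA, SOX17, GATA4 and SOX7 as primitive endoderm forms, and the tissue then splits into parietal and visceral endoderm, where FOXA2 and HNF4A act and DAB2 and cubilin serve nutrient uptake. Cultures of ESCs in serum hold a minority of cells that express such genes. In bulk libraries, fewer cells of a type and less RNA per cell cannot be told apart.

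RNA came from E14 cells, an ESC line of 129/Ola background, grown without feeders on gelatin in serum and LIF. All 3 groups had been infected with lentivirus carrying a pLKO.1 hairpin vector and kept in puromycin for 3 days: shScr received a non-targeting hairpin, shTet1 a single hairpin against Tet1 and shTet2 a single hairpin against Tet2, so that effects of a hairpin beyond its target cannot be told apart from those of the depletion. Each group held 5 libraries of rRNA-depleted RNA. The labels do not say whether these came from separate infections, and the p-values then measure the spread between libraries, which may be technical.

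Reads in genes numbered between 15258291 and 35432425 per library. Tet1 in shTet1 averaged 4534 normalised reads against 16309 in shScr, and Tet2 in shTet2 averaged 2732 against 10277, with no overlap between the groups. The labelled cell type was borne out by its markers, since Pou5f1, Nanog, Sox2, Klf4, Esrrb and Zfp42 each had at least 1338 normalised reads in every library. In 4 libraries (shScr replicate 4, shTet1 replicates 3 and 4, shTet2 replicate 4), transcripts of olfactory and vomeronasal receptor genes took 53.3 to 63.4 of every 1000000 gene reads, against 9.43 to 26.4 in the other 11.

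Normalised reads, the unit of the levels below, are reads divided by the scaling factor of each library. Differences are on the deposited variance-stabilised scale, which approaches log2 for well-covered genes and shrinks the difference of low genes, so that shTet2 means are also given as a percentage of the shScr mean. In shScr, levels per kb of exon ranged from 66.9 ± 44.4 normalised reads per kb for Cubn to 5.57 ± 2.62 for Foxa2 (SD, n = 5). The order between them was Pdgfra (46.9 ± 6.24), Dab2 (30.6 ± 9.30), Gata6 (25.5 ± 17.04), Gata4 (13.5 ± 5.77), Hnf4a (11.7 ± 4.22), Sox7 (11.2 ± 3.66) and Sox17 (10.2 ± 4.08). Every gene in this order overlapped its neighbour in the range over libraries, so that no adjacent pair was separated beyond its spread. Among 19273 genes with a known exon length, Cubn stood at percentile 56 and Foxa2 at percentile 28.8.

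Depletion of TET2 was first compared with the control hairpin. Mean levels of 8 of the 9 genes were lower in shTet2, from 28.1% of the shScr mean for Cubn to 59.0% for Foxa2, and that of Hnf4a was 199%. None of the 9 passed the adjusted threshold of 0.05 in limma (0 called, against 0.39% of all genes tested), and none did with limma-voom on the recovered reads (0 called, against 0.292%). At an unadjusted p under 0.05, 6 of the 9 were lower (Cubn, Pdgfra, Dab2, Gata6, Sox7 and Gata4), where 3.58% of all genes were, and voom gave 6 as well. The median difference of the 9 genes was −0.69, against 0.04 over all genes tested. Since the 9 were chosen with earlier results of these data known, these contrasts with all genes are descriptive. With array weights, which weigh libraries by their spread, 4 of the 9 were called, against 1.45% of all genes: Pdgfra (adjusted p = 0.0141), Cubn (0.0303), Dab2 (0.0349) and Sox7 (0.0465). With the replicate number as a block, 4 were called too (the same genes), against 4.31% of all genes. That block assumes a pairing by number, in which replicate 3 of shTet2 and shScr correlated at only 0.0079. In no alternative did any of the 9 genes reverse its direction in this comparison.

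Cubn encodes cubilin, the ligand-binding part of the endocytic receptor with which visceral endoderm takes up proteins and vitamin carriers. It lies on the minus strand of chromosome 2 (13197965 to 13413551, mm9), and 1.36% of its exon bases are shared with a gene on the opposite strand. Its normalised reads in shScr replicates 1 to 5 were 1061, 1593, 399, 466 and 435, and in shTet2 they were 142, 90.02, 458, 233 and 186. The first and second shScr libraries stood far above the other 3, and shTet2 replicate 3 reached into the range of the control. On the log2 scale it differed by −1.63 (SE 0.38, 95% interval −2.43 to −0.82), the largest difference of the 9. The adjusted p of limma, by Benjamini-Hochberg, was 0.0755, and the exact permutation p was 0.0238.

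Dab2 encodes an adaptor that couples such receptors to clathrin-mediated uptake and is itself an early marker of the lineage. It lies on the plus strand of chromosome 15 (6249788 to 6390712, mm9), and the annotation places a second, shorter gene record of the same name inside it, so that the division of reads between both is uncertain. Its normalised reads were 275, 312, 143, 192 and 200.3 in shScr and 75.2, 59.2, 158, 106 and 104 in shTet2. Only shTet2 replicate 3 lay above the lowest shScr library. The groups differed by −0.95 (SE 0.23, 95% interval −1.43 to −0.47; limma adjusted p = 0.0788), and the shTet2 mean was 44.8% of that in shScr (exact permutation p = 0.0159).

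Pdgfra encodes the receptor for PDGF-A, needed for the survival of primitive endoderm cells, and lies on the plus strand of chromosome 5 (75548316 to 75594229, mm9). It had 280.5, 334, 362, 339.5 and 263 normalised reads in shScr and 112, 93.9, 191, 220.3 and 139 in shTet2. It was the single gene of the 9 whose groups did not overlap, where 0.949% of all genes were lower in shTet2 without overlap, and its mean was 47.9% of the shScr mean. Its difference of −0.95 (SE 0.21, 95% confidence interval −1.39 to −0.52) came nearest to the threshold of the 9, with a limma adjusted p of 0.0535. The exact permutation p was 0.00794, the smallest that 5 against 5 libraries can give.

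TET enzymes oxidise methylated cytosine in CpG pairs, so that the CpG content of the start regions is of interest in genes whose levels varied together. RefSeq start windows (GRCm38.p6, 250 bases before to 50 after the start) were given for 5 of the 9 genes: Cubn, Pdgfra, Dab2, Foxa2 and Hnf4a. The windows of Cubn (chr2:13491827-13492126, minus strand), Pdgfra (chr5:75152001-75152300, plus strand) and the upstream start of Dab2 (chr15:6299539-6299838, plus strand) are shown for the 3 genes with the largest differences, and that of the upstream start of Hnf4a (chr2:163506607-163506906, plus strand) for the gene that differed in the opposite direction. Capitals mark CpG pairs and the GATA-factor words on either strand, that is, the word AGATAA or AGATAG and the word TGATAA or TGATAG.
Cubn: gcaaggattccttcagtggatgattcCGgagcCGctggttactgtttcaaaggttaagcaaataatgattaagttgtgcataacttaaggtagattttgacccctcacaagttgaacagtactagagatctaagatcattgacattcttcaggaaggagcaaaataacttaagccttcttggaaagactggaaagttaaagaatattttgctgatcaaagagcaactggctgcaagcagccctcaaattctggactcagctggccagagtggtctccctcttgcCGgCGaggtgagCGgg
Pdgfra: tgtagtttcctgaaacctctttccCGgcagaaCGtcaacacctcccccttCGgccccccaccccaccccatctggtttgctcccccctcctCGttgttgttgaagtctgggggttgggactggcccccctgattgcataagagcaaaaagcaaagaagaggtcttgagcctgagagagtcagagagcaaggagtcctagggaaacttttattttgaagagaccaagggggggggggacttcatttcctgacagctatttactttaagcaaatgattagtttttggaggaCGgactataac
Dab2: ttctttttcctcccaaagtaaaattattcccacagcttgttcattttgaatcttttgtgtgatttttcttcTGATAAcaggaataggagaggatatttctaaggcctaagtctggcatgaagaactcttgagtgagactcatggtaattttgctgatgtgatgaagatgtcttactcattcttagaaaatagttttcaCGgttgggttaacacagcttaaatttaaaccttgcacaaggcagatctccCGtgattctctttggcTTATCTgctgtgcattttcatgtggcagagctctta
Hnf4a: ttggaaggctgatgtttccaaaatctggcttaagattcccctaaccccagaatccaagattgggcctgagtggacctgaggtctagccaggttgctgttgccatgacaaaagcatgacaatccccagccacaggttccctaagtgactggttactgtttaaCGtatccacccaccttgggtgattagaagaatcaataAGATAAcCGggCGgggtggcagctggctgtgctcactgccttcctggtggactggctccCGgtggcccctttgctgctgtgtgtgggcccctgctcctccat
These windows held 5, 5, 2 and 4 CpG pairs in the same order, where the median of 32851 windows was 7 and 43.6% of windows held 5 or fewer. A second start of Dab2, further downstream, held 19, the 3 starts of Foxa2 held 12, 23 and 13, and the second start of Hnf4a held 4. GATA words occurred in the upstream Dab2 window (at −179 and 15 relative to the start), in the upstream Hnf4a window (at −52) and in 1 Foxa2 window (at −183), that is, in 3 of the 9 windows, and in 29.8% of all windows. None was found in the Cubn and Pdgfra windows, which says only that these letters are absent there.

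Gata6 and Gata4 encode the zinc finger factors at the head of the lineage. Gata6 (chromosome 18) had 109, 164, 37.7, 56.6 and 40.1 normalised reads in shScr and 30.9, 13.1, 39.9, 27.4 and 38.02 in shTet2. The shTet2 mean was 36.7% of the control mean, and shScr replicates 1 and 2 carried much of the control level. It differed by −0.81 (SE 0.25, 95% interval −1.33 to −0.29; limma adjusted p = 0.172). Gata4 (chromosome 14, 63817759 to 63890529, minus strand) had 56.3, 85.3, 31.99, 59.9 and 30.8 normalised reads in shScr and 23.0, 4.62, 28.1, 54.2 and 21.2 in shTet2, with the low value in replicate 2 and an overlap through replicate 4. The mean was 49.6% of that in shScr, and it differed by −0.63 (SE 0.24, 95% interval −1.13 to −0.14; limma adjusted p = 0.278). The exact permutation p was 0.0317 for Gata6 and 0.0476 for Gata4.

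Sox7 and Sox17 encode related SOX factors of the same subgroup that act in the differentiated lineage. Sox7 (chromosome 14, 64562511 to 64569569, plus strand) had 48.1, 37.6, 22.8, 26.6 and 49.3 normalised reads in shScr and 7.12, 3.85, 29.6, 15.4 and 17.9 in shTet2. In 4 of the 5 shTet2 libraries it was below every control library. Its mean was 40.02% of the shScr mean, and it differed by −0.69 (SE 0.20, 95% interval −1.10 to −0.27; limma adjusted p = 0.141, exact permutation p = 0.0238). Sox17 (chromosome 1, 4481009 to 4486494, minus strand) had 29.7, 33.9, 20.6, 53.3 and 23.6 in shScr and 8.71, 6.92, 20.7, 34.2 and 22.4 in shTet2. Its groups overlapped widely, its mean was 57.7% of the shScr mean and its difference of −0.42 had a 95% confidence interval of −0.89 to 0.05 (limma adjusted p = 0.501).

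Foxa2, a forkhead factor of visceral and definitive endoderm, was the lowest of the 9. On chromosome 2 (147868613 to 147872705, minus strand), it had 5.12, 18.8, 7.997, 16.6 and 17.5 normalised reads in shScr and 7.12, 4.62, 7.39, 11.99 and 7.83 in shTet2, with an overlap between the groups and a difference that missed the threshold (−0.24, 95% confidence interval −0.56 to 0.08, limma adjusted p = 0.603). Hnf4a, a nuclear receptor of visceral endoderm and later of liver (chromosome 2, 163332544 to 163398646, plus strand), ran against the others. Its normalised reads were 82.9, 67.7, 54.8, 63.2 and 25.7 in shScr and 168, 199, 62.1, 132 and 25.7 in shTet2. The 3 high shTet2 libraries exceeded every control library, whereas replicates 3 and 5 did not. It differed by 0.58 (SE 0.38, 95% interval −0.20 to 1.37; limma adjusted p = 0.608).

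**Figure D1:**
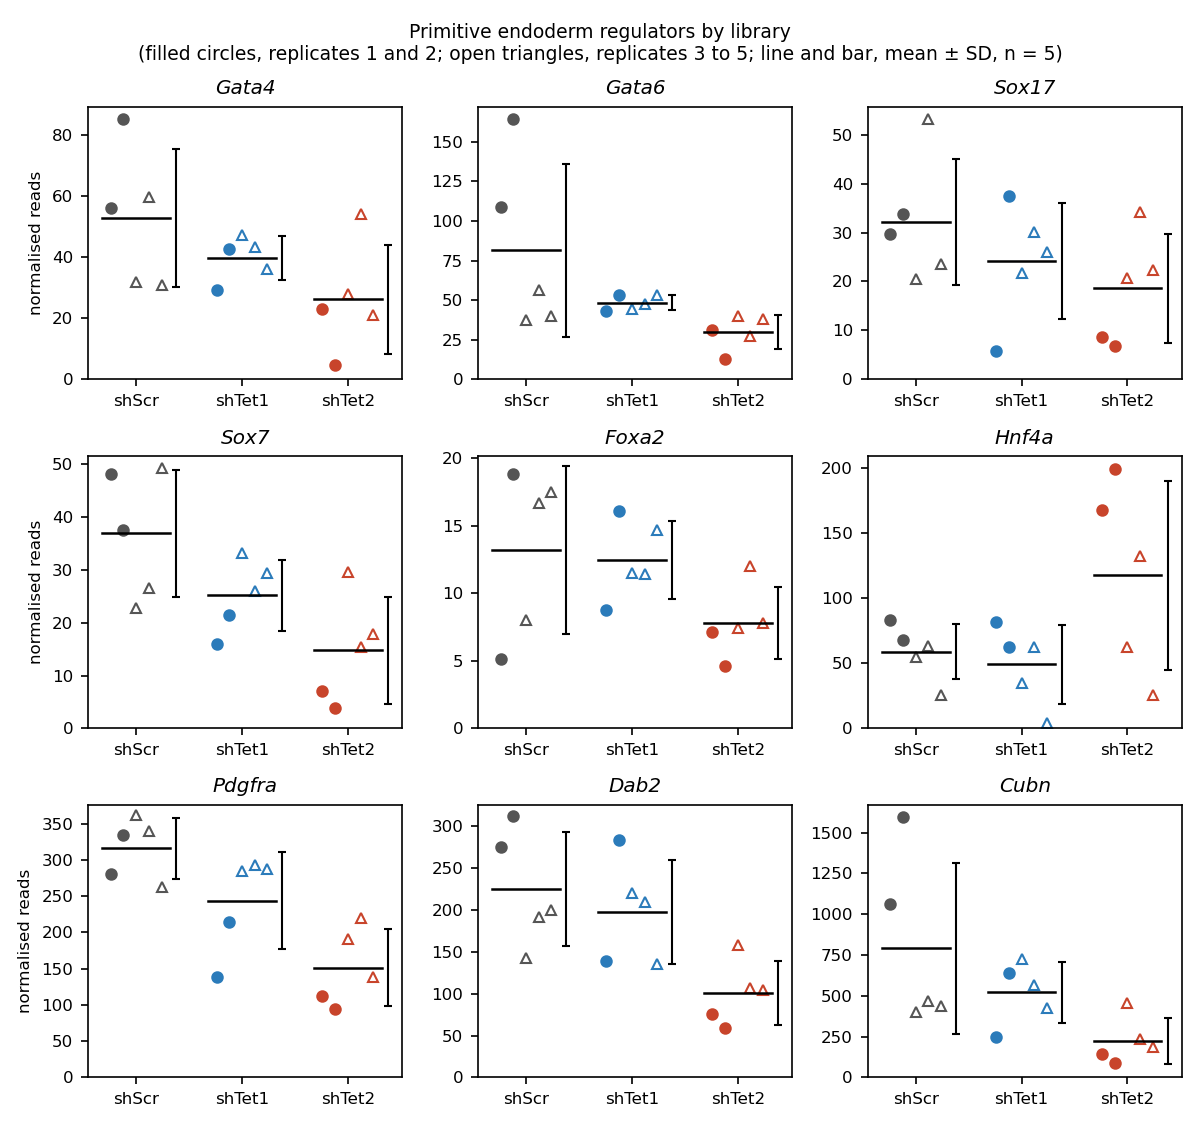
Normalised reads of each gene (vertical axes, linear from 0) in the 5 libraries of shScr, shTet1 and shTet2; lines and bars give the mean and SD, filled circles are replicates 1 and 2 and open triangles replicates 3 to 5. Pdgfra in shTet2 (93.9 to 220.3) lay below its whole shScr range (263 to 362), and the high shScr values of Cubn and Gata6 are those of replicates 1 and 2.

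**Figure D2:**
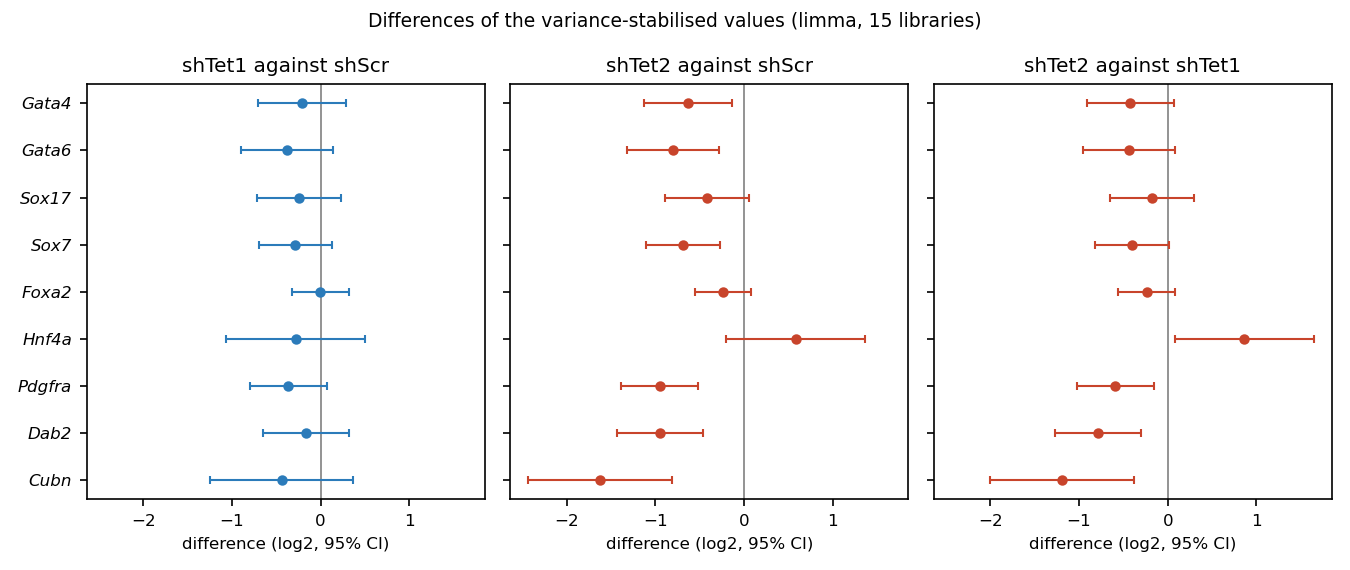
Differences on the variance-stabilised log2 scale (horizontal axes) with 95% confidence intervals from limma for the 9 genes in the 3 comparisons, 5 libraries a group. In shTet2 against shScr, 6 intervals lie below 0, from Gata4 (−1.13 to −0.14) to Cubn (−2.43 to −0.82), and all 9 intervals of shTet1 against shScr include 0.

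The libraries also fell into sets by number, replicates 1 and 2 against replicates 3 to 5, a split that the labels do not explain. Within replicates 1 and 2, the difference of shTet2 from shScr was −3.16 for Cubn, −1.71 for Gata6, −1.71 for Dab2, −1.35 for Gata4, −1.31 for Pdgfra, −1.24 for Sox7, −0.85 for Sox17, −0.28 for Foxa2 and 1.00 for Hnf4a. Within replicates 3 to 5, the same genes gave −0.60, −0.20, −0.44, −0.15, −0.72, −0.32, −0.14, −0.22 and 0.30. All 9 kept their sign in both sets, and for each the difference was the smaller in replicates 3 to 5. Fits in 1 set and the interaction below were added after seeing the data. Replicates 1 and 2 leave 2 libraries a group and hold those with the highest and lowest mean standardised values (shScr replicate 2, 1.32, and shTet2 replicate 2, −1.53). Refitted alone, replicates 1 and 2 gave 7 of the 9 genes past the adjusted threshold of limma (all but Sox17 and Foxa2, with Hnf4a the 1 that was higher), against 2.54% of all genes. Replicates 3 to 5 alone gave none of them, against 0.00539% of all genes. The difference between the sets was tested as an interaction term in limma, with an adjusted p of at least 0.878 for all 9. Its unadjusted p ran from 0.000122 for Cubn to 0.855 for Foxa2. The smallest were those of Cubn, Gata6, Dab2, Gata4 and Sox7 (0.0106), and the share of all genes at that level is not given here. What the sets are is not known, and their part in the result was not tested.

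**Figure D3:**
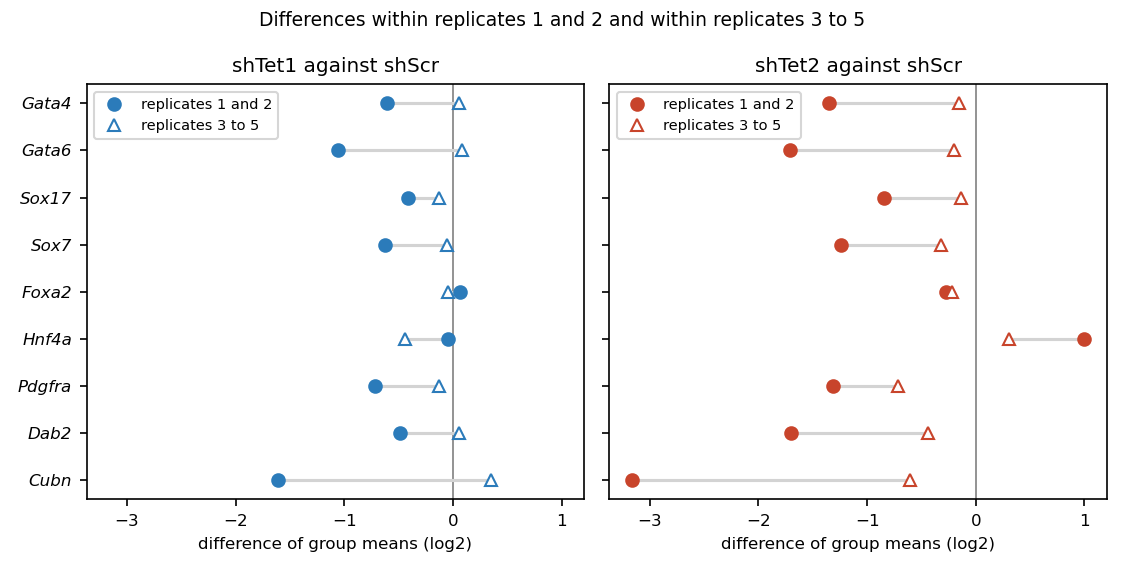
Differences of the group means on the log2 scale (horizontal axes) within replicates 1 and 2 (filled circles) and within replicates 3 to 5 (open triangles) for each gene, joined by a line. In shTet2 against shScr the points of Cubn stand at −3.16 and −0.60, and in shTet1 against shScr at −1.61 and 0.35.

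Depletion of TET1 was compared with the same control libraries, so that both comparisons with shScr share them. Mean normalised reads in shTet1 were between 59.4% (Gata6) and 94.5% (Foxa2) of those in shScr, and all 9 differences lay below 0, with a median of −0.28 against 0.01 over all genes. The value of Foxa2 was 0 to 2 decimals and became positive under several alternatives. None of the 9 genes was called by limma (0.0718% of all genes), by voom (0.0872%) or with the replicate number as a block (4.8%), and none had an unadjusted p under 0.05 and was lower (5.23% of all genes).

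In shTet1, Cubn had 245, 640.3, 724, 568 and 428 normalised reads, all within or below the control range, and its difference was −0.44 (95% confidence interval −1.24 to 0.37, limma adjusted p = 0.728). Replicates 1 and 2 gave −1.61 for Cubn, and replicates 3 to 5 gave 0.35. The interaction p was 0.00139 for Cubn and 0.00300 for Gata6, with an adjusted p of 0.567 for each. Gata6 was even across the shTet1 libraries, with 43.1, 53.6, 44.7, 47.7 and 53.0 normalised reads, all within the control range of 37.7 to 164, and differed by −0.38 (95% confidence interval −0.89 to 0.14). Pdgfra had 139, 214, 285, 292 and 288 and a difference of −0.36 (95% confidence interval −0.80 to 0.07, limma adjusted p = 0.536), with shTet1 replicates 1 and 2 below every control library.

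The other genes differed by less in shTet1. Dab2 had 139, 283, 219.7, 209 and 135 normalised reads and a difference of −0.16 (95% confidence interval −0.64 to 0.32). Gata4, with 29.2, 42.8, 47.3, 43.6 and 36.1, differed by −0.21 (−0.71 to 0.28), and Sox7, with 16.1, 21.4, 33.2, 25.9 and 29.3, by −0.28 (−0.70 to 0.13). For these 3 genes, most shTet1 libraries lay inside the control range. Sox17 had a single low library, replicate 1, in 5.84, 37.5, 21.7, 30.1 and 25.9 normalised reads, with a difference of −0.24 (−0.71 to 0.23). Hnf4a also had 1 low library, replicate 5, in 81.8, 62.7, 34.5, 62.2 and 4.51, and without that library alone the difference of −0.28 turned to 0.04. Paired by number, Hnf4a was lower in shTet1 in all 5 pairs, with a blocked 95% confidence interval of −0.64 to 0.08 (limma adjusted p = 0.366). Foxa2 had 8.76, 16.1, 11.5, 11.4 and 14.7 normalised reads.

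Set directly against shTet1, the shTet2 libraries had lower means for 8 of the 9 genes, from 42.6% of the shTet1 mean for Cubn to 76.8% for Sox17, and a mean of 239% for Hnf4a. The median difference was −0.42, against 0.01 over all genes. No member was called by limma, in a comparison that called 4.24% of all genes. At an unadjusted p under 0.05, 3 were lower (Dab2, Cubn and Pdgfra), where 6.37% of all genes were, and 1 was higher (Hnf4a), where 9.32% were. Voom called 1 member, Dab2 (adjusted p = 0.0464), against 4.62% of all genes.

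Same-numbered libraries of shTet1 and shTet2 deviated together, and with the replicate number as a block 3 members passed the threshold, against 11.2% of all genes. Hnf4a was higher in shTet2 in all 5 pairs (difference 0.86, blocked 95% confidence interval 0.50 to 1.22, limma adjusted p = 0.00341 with the block and 0.257 without). Pdgfra was lower in all 5 pairs (−0.59, −0.91 to −0.27, adjusted p = 0.0178 with the block and 0.139 without), as was Dab2 (−0.79, −1.27 to −0.30, adjusted p = 0.0353 and 0.0627). Cubn was lower in all 5 pairs too and missed the threshold in both fits (−1.19, adjusted p = 0.0599 and 0.0977). Gata6 had no overlap between the groups, with shTet2 libraries reaching at most 39.9 and shTet1 libraries at least 43.1 normalised reads, where 2.45% of all genes were lower without overlap. Its difference was −0.43 (95% confidence interval −0.95 to 0.09), with a limma adjusted p of 0.442 and an exact permutation p of 0.00794. Within replicates 3 to 5, the differences were −0.95 for Cubn, −0.59 for Pdgfra, −0.50 for Dab2 and 0.74 for Hnf4a, and within replicates 1 and 2 they were −1.55, −0.60, −1.22 and 1.04.

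The genes varied together from library to library, apart from Hnf4a. Over the 15 libraries, Pearson's r of each gene with the mean standardised value of the other 8 was 0.92 for Cubn, 0.91 for Gata4, 0.90 for Dab2, 0.81 for Pdgfra, 0.79 for Gata6, 0.76 for Sox7, 0.74 for Sox17 and 0.57 for Foxa2, and −0.47 for Hnf4a. Deviations from the group means, which leave out the differences between the groups, gave values nearer 0, from 0.37 for Foxa2, 0.50 for Sox7, 0.58 for Pdgfra, 0.61 for Gata6 and 0.69 for Sox17 to 0.82 for Dab2, 0.84 for Cubn and 0.87 for Gata4, and −0.30 for Hnf4a. The 28 pairs without Hnf4a had r between 0.41 and 0.96 (median 0.72), the highest being Dab2 with Cubn, and the 8 pairs with Hnf4a lay between −0.62 and −0.24. These correlations describe 15 libraries that share 3 groups and a replicate set. Library shScr replicate 2 held the highest value of the 15 for 5 of the genes, with a mean standardised value of 1.32, and shTet2 replicate 2 the lowest for 7, with −1.53.

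Outside the 9, the genes whose pattern was most like their mean were Nostrin (r = 0.93), Suv420h1 (0.90), Aqp8 (0.86), Slc30a1 (0.85), Ap4e1 (0.85), Amn (0.85), Nucks1 (0.84), Srgn (0.83), Runx1 (0.83) and Tapt1 (0.82), over 15 libraries and 15622 genes. Amn encodes amnionless, the membrane partner of cubilin, and Srgn the proteoglycan serglycin, and both stood on the lists of related genes. Ap4e1, a subunit of the AP-4 vesicle adaptor, and Aqp8, an aquaporin, passed the threshold in shTet2 against shScr. The difference was −0.63 for Ap4e1 (limma adjusted p = 0.0248) and −0.996 for Aqp8 (limma adjusted p = 0.0464). Nostrin, an adaptor of endothelial nitric oxide synthase trafficking, differed by −1.22 (limma adjusted p = 0.0713). The correlation that picked these genes includes the differences between the groups, so that these p-values are favoured by the choice. The lowest correlations were those of BC021614 (−0.86), Pkd2l1 (−0.85) and Maged1 (−0.84). Spearman's rho kept 6 of the 10 genes among its own first 10, and deviations from the group means kept 2.

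**Figure D4:**
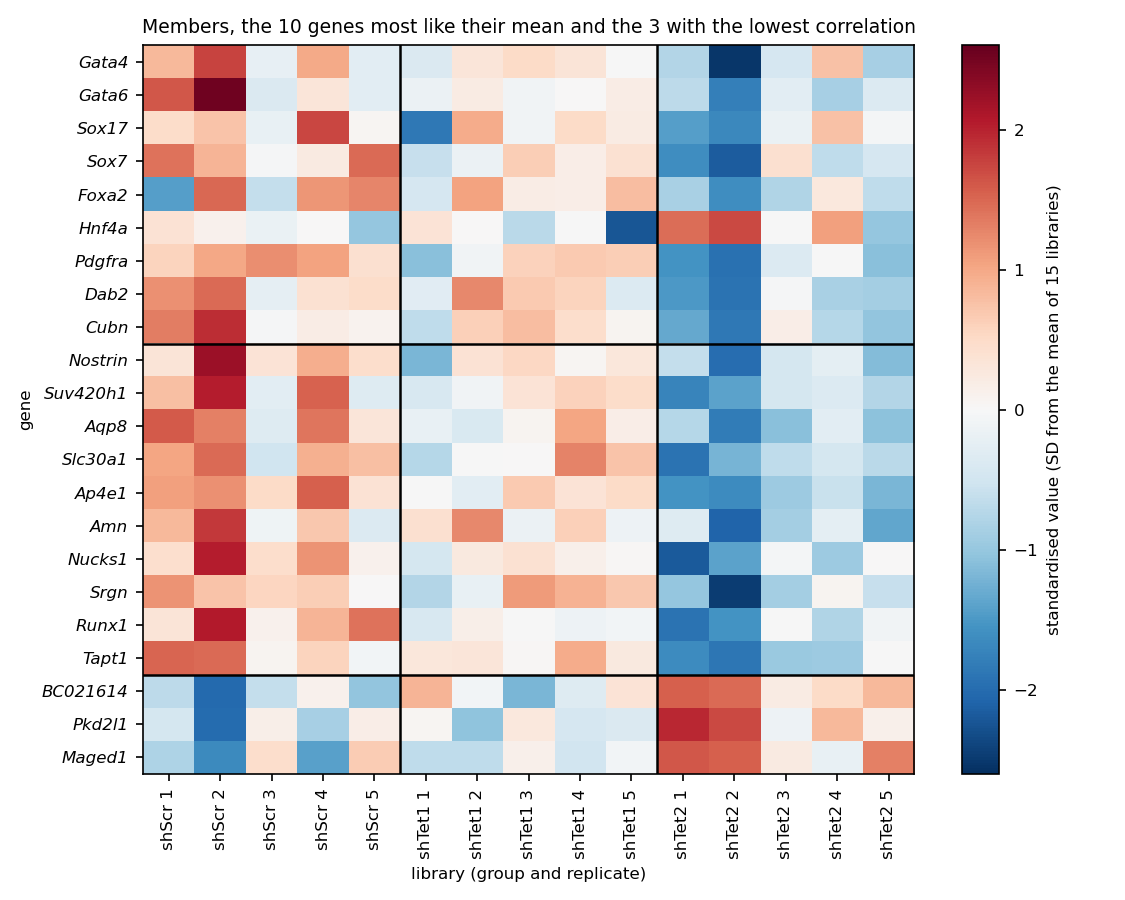
Standardised variance-stabilised values (colour, SD from the mean of the 15 libraries) of the 9 genes, of the 10 genes with the highest correlation with their mean and of the 3 with the lowest, by library. Among the 9 genes, library shScr 2 is red for those other than Hnf4a, which is near its mean there, and shTet2 2 is dark blue for them and red for Hnf4a (r = −0.47). The 3 genes with the lowest correlation are blue in shScr 2 and red in shTet2 2.

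Related genes were read from lists of paralogues and partners, other endoderm regulators, endoderm products and FGF signalling. Of 16 paralogues and binding partners, 0 were called by limma in either comparison with shScr. In shTet2, Gata1 (0.49) had an unadjusted p under 0.05 and was higher, and Amn (−0.73), Pdgfc (−0.81) and Pdgfa (−0.53) were lower. Pdgfa, the gene of the ligand of PDGFRA, is named after its value was seen. Mean normalised reads of Gata1, an erythroid GATA factor, were 28.3 ± 7.45 in shTet2 and 13.3 ± 3.37 in shScr (SD, n = 5). Those of Pdgfc, a PDGF receptor ligand, were 292 ± 156 in shTet2, 294 ± 98.7 in shTet1 and 497 ± 126 in shScr. In shTet1 the smallest p-values were those of Pdgfc (−0.73), Zfpm2, a GATA cofactor (−0.41), and Lrp2, which encodes megalin, the receptor that works with cubilin (−0.47). Limma adjusted p-values of the named genes were 0.141 to 0.395 in shTet2 and 0.336 to 0.539 in shTet1. Between shTet2 and shTet1, 0 genes of the list were called, and 2 of 16 with the replicate block, which called 11.2% of all genes. These were Amn (−0.64, blocked limma adjusted p = 0.0370) and Gata3 (0.65, 0.0417).

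Among 15 other endoderm regulators tested of 16, 0 were called. With the replicate block, 1 was called in shTet1 against shScr (4.8% of all genes), Lefty1, an inhibitor of Nodal signalling. Lefty1 was higher in all 5 pairs (difference 0.61, limma adjusted p = 0.0120 with the block and 0.806 without). It was called with the block in shTet2 against shScr too, again higher in all 5 pairs (0.59, limma adjusted p = 0.0125 and 0.826). Its normalised reads ran from 116 to 2044 in shTet1 and from 68.8 to 1246 in shScr, and it is named after its value was seen. Hhex, a homeobox factor of anterior visceral endoderm, had 54.2 ± 15.6 normalised reads in shTet2, 50.49 ± 20.2 in shTet1 and 32.8 ± 7.26 in shScr (differences 0.42 and 0.34). Its unadjusted p was 0.0357 in shTet2, and Foxq1 (−0.41) was the other gene under 0.05 there. The remaining genes with the smallest p-values were Lhx1 (0.24) in shTet2 and Bmp2 (−0.30) and Foxh1 (0.20) in shTet1, all with limma adjusted p of at least 0.384 together with Hhex and Foxq1. The median difference of the list was 0.04 in shTet2 and 0.08 in shTet1, where that of all genes was 0.04 and 0.01.

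Of 20 basement membrane, secretory and surface genes of parietal endoderm, 1 rose in shTet2 against shScr. Krt19, an epithelial keratin, had 149.9 ± 44.0 normalised reads in shTet2 and 50.05 ± 9.61 in shScr (difference 1.12, SE 0.22, limma adjusted p = 0.0307). The count was 0 with median centring, quantile normalisation, voom or replicates 3 to 5 alone, and also without any 1 of the 5 shScr libraries or without shTet2 replicate 1 or 2. Plat, tissue plasminogen activator (1.06, limma adjusted p = 0.0786), and Srgn (−1.03, limma adjusted p = 0.104) came next. At an unadjusted p under 0.05, 4 genes of the list were higher and 3 lower. Named after their values were seen, the others of these were Serpinh1 (0.49) and P4ha2 (0.46) on the higher side, and Col4a1 (−0.65) and Col4a2 (−0.65), the chains of basement membrane collagen, on the lower. In shTet1, 0 were called, and 2 were lower at that level, P4ha2 (−0.38) and Lama1 (−0.45), followed by P4ha1 (0.32). Against shTet1, 4 genes rose in shTet2: Krt19 (1.07), Plat (1.16), P4ha2 (0.84) and Serpinh1 (0.53). P4ha2 is a collagen prolyl hydroxylase and Serpinh1 a collagen chaperone. Their limma adjusted p-values were between 0.00220 and 0.0211.

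Visceral endoderm products gave 0 calls among 15 tested of 18. In shTet2, Apoa2 (0.88) and Vil1 (0.60) had an unadjusted p under 0.05 and were higher, and Apom (−0.47) was lower. Apoa2, an apolipoprotein, had 19.9 ± 13.5 normalised reads in shTet2 and 2.59 ± 2.01 in shScr, with a limma adjusted p of 0.0786. The exact permutation p was 0.00794, but the groups were barely separated, at few reads. The lowest shTet2 library had 5.59 normalised reads and the highest shScr library 5.55. Between shTet2 and shTet1, 0 genes of the list were called, and 2 of 15 with the replicate block, which called 11.2% of all genes. These were Ttr (−0.44, limma adjusted p = 0.0377), named after its value was seen, and Apoa2 (0.70, 0.0357). In shTet1 against shScr, Apom (−0.54) and Spink3 (−1.12) were lower at an unadjusted p under 0.05 and Rbp4 (0.58) was higher. Apom and Spink3 were lower in all 5 pairs there, with limma adjusted p-values of 0.0346 and 0.0357 with the replicate block and 0.186 and 0.395 without. Afp, Apoa4, Slc2a2 and Fgb, products of mature visceral endoderm, averaged less than 1 normalised read over the 15 libraries.

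FGF signalling genes, which act upstream of Gata6, gave 0 calls against shScr and 3 against shTet1 among 13. Fgfr1 had 439 ± 181 normalised reads in shTet2, 966 ± 176 in shTet1 and 750.4 ± 153 in shScr. It was lower in shTet2 than in shTet1 (−1.13, limma adjusted p = 0.00304), as were the ligand gene Fgf4 (−0.59, limma adjusted p = 0.0126) and Ptpn11, the phosphatase SHP2 (−0.63, limma adjusted p = 0.0312). Against shScr, these 3 genes gave −0.77, −0.22 and −0.32 in shTet2 and 0.36, 0.37 and 0.31 in shTet1, with limma adjusted p-values of at least 0.108. In shTet2 against shScr, Fgfr1 and Dusp6, an ERK phosphatase (0.40, limma adjusted p = 0.423), had an unadjusted p under 0.05.

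Pluripotency factors of the epiblast, the lineage opposed to primitive endoderm, gave 0 calls against shScr among 11 genes found of 12, with 0 genes at an unadjusted p under 0.05 in shTet2 and 1, Fgf4, in shTet1. Their median difference was −0.22 in shTet2 and 0.18 in shTet1. The 3 with the smallest p-values in shTet2 were Pou5f1 (−0.31), Fgf4 (−0.22) and Klf4 (−0.37), and in shTet1 Fgf4 (0.37), Sox2 (0.28) and Prdm14 (0.33). The summed level of the list was 70914 to 81837 normalised reads in shTet2, below the 83062 to 89719 of every shScr library and the 87709 to 94533 of every shTet1 library. That sum rests largely on abundant genes, with shTet2 means of 19965 for Zfp42, 15313 for Pou5f1 and 13444 for Sox2. Against shScr these differed by −0.23, −0.31 and 0.03, and 9 of the 11 genes were lower and 2 higher. Fgf4 was the 1 gene called between shTet2 and shTet1. The replicate block, which called 11.2% of all genes there, also called Prdm14 (−0.66, limma adjusted p = 0.0113 with the block and 0.0977 without).

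**Figure D5:**
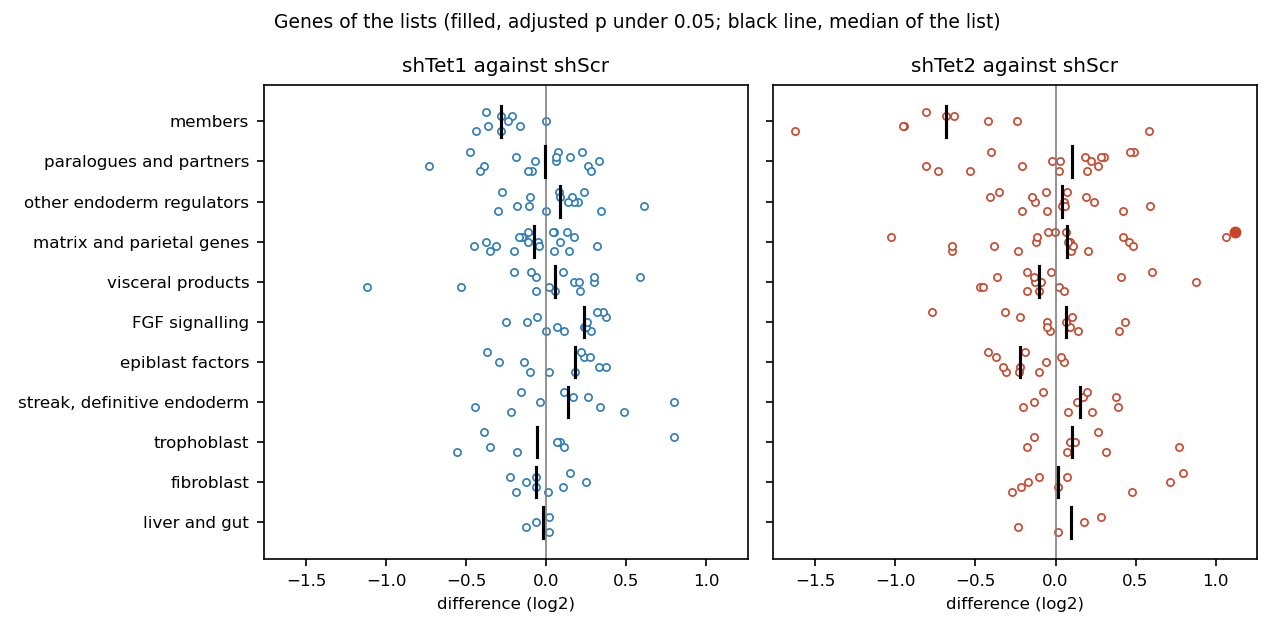
Differences on the variance-stabilised log2 scale (horizontal axes) of every tested gene of each list in shTet1 and in shTet2 against shScr; black lines are list medians and filled points passed an adjusted p of 0.05. The 9 genes, chosen like the lists with earlier results of these data known, have the lowest median of the lists in shTet2 (−0.69). Krt19 (1.12) is the single filled point.

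Markers of other cell types were summed beside these results. The fibroblast list (10 genes) came to 295 to 388 normalised reads in shTet2, 115 to 341 in shScr and 184 to 262 in shTet1, with Lum at 0 in every library and Twist2 under 1 read on average. Thy1 (0.72) and Fbln2 (0.80) had an unadjusted p under 0.05 in shTet2, followed by Col1a1 (0.48), and limma called 0 of 9. In shTet1 the smallest p-values of that list were those of Thy1 (0.25), Dcn (−0.22) and Fbln2 (0.15). Trophoblast genes (9 found of 10) summed to 167 to 330.1 in shTet2, 139.8 to 279 in shScr and 177 to 293 in shTet1, with Tpbpa at 0 and Elf5 and Plac1 under 1 read on average. None was called against shScr, with 1 gene at an unadjusted p under 0.05 in shTet2 (Krt7) and 2 in shTet1 (Eomes and Ascl2). There Krt7 (0.77), Ascl2 (0.32) and Gata3 (0.26) had the smallest p-values in shTet2, and Eomes (0.80), Ascl2 (−0.56) and Cdx2 (−0.35) in shTet1. Against shTet1, Eomes fell by 0.94 in shTet2 and Ascl2 was higher by 0.88 (limma adjusted p = 0.0185 and 0.0312). Of these 2 calls, 1 was left without any single shTet1 library or shTet2 replicate 3 or 4, and 0 without shTet2 replicate 1 or 2. The replicate block gave 4, against 11.2% of all genes, with Gata3 (0.65) and Krt7 (0.66) added. With the replicate block, Eomes was also called in shTet1 against shScr (limma adjusted p = 0.0176 with the block and 0.133 without, higher in all 5 pairs), and Fbln2 of the fibroblast list in shTet2 against shTet1 (0.65, limma adjusted p = 0.0233 and 0.104). The part of these markers in the results above was not tested.

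Primitive streak and definitive endoderm genes, which share Foxa2 and Sox17 with the lineage described here, summed to 1031 to 1389 normalised reads in shTet2, 942 to 2185 in shScr and 1029.6 to 1235 in shTet1. None of 10 was called against shScr, and Eomes (0.80) and Mixl1 (0.48) were higher and Nodal (−0.44) lower at an unadjusted p under 0.05 in shTet1. In shTet2 no gene reached that level, and Tbx6 (0.38), Cxcr4 (0.39) and Nodal (−0.20) had the smallest p-values. Liver and gut genes, which share Hnf4a, summed to at most 31.1 normalised reads in any library, with Fabp1 and Fabp2 at 0. Of the 4 tested, 0 were called and 0 had an unadjusted p under 0.05, and Cdx1 (−0.24 in shTet2, −0.12 in shTet1), Pdx1 (0.28 in shTet2), Lgr5 (0.18 and −0.06) and Alb (0.02 in shTet1) had the smallest p-values.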

How the data were processed

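RNA-seq of 15 libraries, 5 each of shScr, shTet1 and shTet2, was analysed from the gene table. The authors trimmed reads (Trim Galore 0.3.3), aligned them to mm9 with Tophat 2.0.9, keeping 1 position for a read with several, counted them per gene in Seqmonk and normalised them with DESeq2. The deposited values are variance-stabilised by the authors on a log2-like scale, with 4.25 standing for 0 reads. Whether counting used strand is not given in the sources used here, and the repeat table was not used. Undoing the transformation gave whole reads (within 0.1 read, up to 1000 reads) for 100% of values above that minimum, and these recovered reads gave depth, normalised reads and reads per kb of exon.

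Differences came from limma 3.58.1 in R 4.3.3 (lmFit, eBayes with a variance trend, group as the only term, all 15 libraries, two-sided), on the deposited values of genes above the minimum in at least 5 libraries, with Benjamini-Hochberg adjustment over 19490 genes and a threshold of 0.05. It takes the place of the count model used by the authors, since variance-stabilised values had been deposited. On data simulated for shTet2 against shScr over 20621 genes, it called 72% of 50 genes lowered by 2 and 36% of 50 lowered by 1 on the log2 scale. Single members also had a two-sided exact permutation test. Alternatives were limma-voom on recovered reads, filters, scalings, array weights, a block on the replicate number, the replicate set as a term and each library left out. Fits without the 4 receptor-rich libraries or in 1 replicate set, and the interaction, were added after seeing the data.

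The members and lists were chosen with earlier results of these data known. Named genes were the members, every list gene with an adjusted p under 0.05, the 3 of each list with the smallest p per knockdown, and the 10 most and 3 least correlated genes (unnamed predicted genes skipped). Same-numbered libraries were checked for pairing by correlating their deviations from the group means across genes. Every pair passed 0.1 for shTet1 against shScr (0.374 to 0.657) and shTet2 against shTet1 (0.330 to 0.731), but not for shTet2 against shScr (lowest 0.00790). The numbers were therefore taken to pair the libraries in the former comparisons, where 4 of 5 libraries correlated best with their own number. That reading is uncertain, since true pairs would hold in all 3 comparisons. Whether the shared replicate sets alone give such correlations was not tested. Positions are from GENCODE vM1 (mm9), and start windows from RefSeq (GRCm38.p6), whose coordinates are not those of mm9.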

Additional observations from a re-analysis of the deposited data

How the results depend on the processing

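With 5 libraries a group and reads per member often under 100, the simulation above missed most genes lowered by 1 log2 unit, so that members without a call were not shown to be unaffected. No member was called in either comparison with shScr by the fit reported, and none was called in replicates 3 to 5 alone. A percentage beside a count is the share of all genes called, which is not given for every setting. Counts without that share cannot be set against all genes. In shTet2 against shScr the number of members called was 1 without the variance trend (Pdgfra) and 3 with the replicate set as a term. It was 4 with array weights (1.45%) and 7 in replicates 1 and 2 alone (2.54%). With each library left out it was 0 to 1. That 1 was Pdgfra without shTet1 replicate 1 (adjusted p = 0.0271) or shTet2 replicate 4 (0.0395), and Cubn without shTet2 replicate 3 (0.0390). In this comparison the replicate numbers were not taken to pair the libraries. Replicate 3 correlated at 0.0079 and the others at 0.4 to 0.769, and 3 of 5 shTet2 libraries correlated best with their own number in shScr. With the replicate number as a block 4 members were called (Cubn, Pdgfra, Sox7 and Dab2), with 840 genes or 4.31% in all, against 76 without. In shTet2 against shTet1 the number was 1 with median centring (3.92%), 1 with quantile normalisation and 1 with voom (4.62%). It was 3 with array weights, 3 with the block (11.2%), 2 with the replicate set as a term and 3 in replicates 1 and 2 alone (4.81%). With each library left out it was 0 to 2. Those calls were Pdgfra without shTet1 replicate 1 (adjusted p = 0.0464), Dab2 without shTet1 replicate 5 (0.0418), and Cubn (0.0351) and Dab2 (0.0311) without shTet2 replicate 3. In shTet1 against shScr 2 members (Cubn and Gata6) were called in replicates 1 and 2 alone (6.49%). The replicate block, which takes the numbers as pairs, called none (4.8%). The cause of these changes was not tested.

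Direction reversed in shTet1 against shScr alone. In replicates 3 to 5 the difference was 0.054 for Gata4, 0.079 for Gata6, 0.053 for Dab2 and 0.35 for Cubn. Foxa2 gave 0.039 with array weights, 0.042 with voom, 0.064 without the 4 receptor-rich libraries and 0.061 in replicates 1 and 2 alone, and Dab2 gave 0.021 with array weights. With each library left out, Foxa2 ranged from −0.10 to 0.057 and Hnf4a from −0.45 to 0.036, the last without shTet1 replicate 5.

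Over all genes, the block raised the calls from 14 to 935 in shTet1 against shScr and from 827 to 2178 in shTet2 against shTet1. Replicates 1 and 2 alone gave 1081 calls in shTet1 and 422 in shTet2, each against shScr, and 801 in shTet2 against shTet1. Replicates 3 to 5 alone gave 0, 1 and 157. Median centring moved the median difference of all genes in shTet2 against shScr from 0.04 to −0.07, and the calls there from 43 higher and 33 lower to 5 and 34. In shTet2 against shTet1 it moved them from 561 higher and 266 lower to 437 and 327.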

Other observations

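Hnf4a, the gene that ran against the other 8, was followed by genes of unrelated names when its own pattern was searched, a search added after seeing its values. The highest Pearson correlations with Hnf4a over the 15 libraries were those of Tmem143 (0.96), Usp29 (0.93), Ap3b2 (0.93), Pygm (0.92) and Rasal1 (0.92). Pygm encodes muscle glycogen phosphorylase, Usp29 lies in the imprinted Peg3 domain and Ap3b2 encodes a neuronal AP-3 subunit, and none of the 5 stood on a list of endoderm genes. Deviations from the group means gave 0.91 to 0.94 for them, and none passed the threshold in shTet2 against shScr (differences 0.24 to 0.84, limma adjusted p = 0.296 to 0.733) or against shTet1 (0.36 to 0.96, limma adjusted p = 0.0675 to 0.468).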
